A study of Mus musculus with 31 samples.

Results

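The genes described here carry the synthesis of glutathione and the import of the cystine it is made from. They are 9 of the 13521 genes in the deposited table and were taken by symbol: Slc7a11, Slc3a2, Gclc, Gclm, Gss, Gsr, Gpx1, Gpx4 and Abcc1. All 9 were found and all 9 passed the filter on low counts, with at least 147 counts in every library. RNA of alveolar macrophages (AM), the phagocytes of the air spaces, was sequenced in 31 libraries, 1 per mouse. WT mice were C57BL/6, and RAGE null mice were homozygous for a null allele of Ager, the gene of the receptor for advanced glycation end-products, on the C57BL/6 background and bred in their own colony. Adult male mice of both genotypes breathed cigarette smoke (CS) or room air (controls) for 7 days or, on 5 days of each week, for 4 months. The control WT group at 7 days has 3 libraries, and each of the other 7 groups of genotype, exposure and time has 4. The RAGE null allele is present in every cell of these mice, and the AM are the pelleted cells of a lavage for which no sorting step was stated. The replicate numbers are those of the labels and start at 0.

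Glutathione is a tripeptide that macrophages use to reduce peroxides and to bind the reactive compounds of smoke. Cystine enters the cell through system xc-, a pair of Slc7a11, the transport chain, and Slc3a2, the shared heavy chain that holds it in the membrane. Inside the cell cystine is reduced to cysteine. Glutamate-cysteine ligase, a pair of the catalytic subunit Gclc and the modifier subunit Gclm, joins cysteine to glutamate in the rate-limiting step, and glutathione synthetase (Gss) adds glycine. Gpx1 and Gpx4 are selenium-containing peroxidases that spend glutathione, Gpx4 on lipid peroxides within membranes. Gsr returns oxidized glutathione to its reduced form with NADPH, and Abcc1 pumps glutathione and its conjugates out of the cell. Several of these genes are known targets of Nrf2, which binds antioxidant response elements, and Slc7a11 is also a known target of ATF4, which binds amino acid response elements.

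In the mm10 annotation Slc7a11 lies on the minus strand of chromosome 3 from 50364936 to 50443613 and Gclm on the plus strand of the same chromosome from 122245557 to 122269984. Slc3a2 lies on chromosome 19 from 8706882 to 8723369, Gclc on chromosome 9 from 77754535 to 77794485, Gss on chromosome 2 from 155563181 to 155592810 and Abcc1 on chromosome 16 from 14361558 to 14475737. Gsr lies on chromosome 8 from 33652523 to 33698163, Gpx1 on chromosome 9 from 108339276 to 108340340 and Gpx4 on chromosome 10 from 80047166 to 80056439. Each is a protein-coding gene. RefSeq promoter windows of build GRCm38.p6, 300 bases each, were matched for 6 of the 9 genes and gave 9 windows, since Gpx4 has several annotated starts. Gclc, Gsr and Abcc1 had no matched window and were not searched. Both strands were searched for the core of the antioxidant response element, TGACNNNGC, and for the amino acid response element TGATGNAA, and no match in these windows belonged to both motifs. The former is found in 4071 of 32851 promoter windows (12.4%) and the latter in 1304 (3.97%). Of the matched genes, Gclm held 1 antioxidant response element core and Slc7a11 held 2 amino acid response elements, and 2 or more were found in 23 of all windows (0.0700%). The other windows of the matched genes held neither string of letters. The 250 bases before the start are shown for these 2 genes because they are the windows with a match, with the matches in capitals, at chr3:50443614-50443863 on the minus strand and chr3:122245307-122245556 on the plus strand.
Slc7a11: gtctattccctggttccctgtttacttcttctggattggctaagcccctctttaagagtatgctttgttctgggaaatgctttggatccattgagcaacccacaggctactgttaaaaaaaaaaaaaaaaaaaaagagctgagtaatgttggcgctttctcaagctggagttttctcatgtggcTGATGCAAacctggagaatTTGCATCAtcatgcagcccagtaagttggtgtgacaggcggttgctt
Gclm: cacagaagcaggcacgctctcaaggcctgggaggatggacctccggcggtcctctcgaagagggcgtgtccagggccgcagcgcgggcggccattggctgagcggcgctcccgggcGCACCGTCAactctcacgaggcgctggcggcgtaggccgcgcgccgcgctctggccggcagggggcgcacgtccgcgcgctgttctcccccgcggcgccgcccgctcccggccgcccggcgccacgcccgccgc
The matches in Slc7a11 begin 66 and 47 bases before the start, on opposite strands, and the match in Gclm begins 134 bases before it, on the strand opposite to the gene. A match of letters is a description and was not linked to any level reported here.

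Libraries held from 11.7 to 34.5 M counts. Levels are given as normalised CPM, the counts of a gene divided by the size of its library, with scaling factors set over all 31 libraries. Fold changes were fitted within a time point with edgeR's quasi-likelihood test, and p-values were adjusted by the Benjamini-Hochberg method over every tested gene. Genes with an adjusted p below 0.05 whose levels differed by 1.5-fold or more are described as called. The labelled cell type was checked with 15 measured AM marker genes of 17 listed, none of which was under 1 CPM in every library, and their summed level ran from 23128 to 38497 CPM. Ager itself was counted at 0.671 to 7.37 CPM in 15 WT libraries and at 2.73 to 5.44 CPM in 16 RAGE null libraries. Over both time points it thus did not separate the genotypes. In the 4-month controls it was lower in WT mice, at 1.42 to 2.53 CPM, than in RAGE null mice, at 2.73 to 3.93 CPM. A count per gene does not show which part of Ager was read. H2-T10, which lies on chromosome 17 as Ager does, was at 2.90 to 6.34 CPM in WT and at 9.78 to 23.1 CPM in RAGE null libraries.

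A few libraries stood apart. The library labelled RAGE null control, 4 months, replicate 2 held 9.78 CPM of H2-T10 against 19.4 to 22.2 CPM in the others of its group, 3.29 CPM of the surfactant gene Sftpc against 29.5 to 100.1 CPM, and 273 CPM of Slc7a11 against 54.5 to 135 CPM. It held 24.0 CPM of Glo1 against 26.9 to 39.2 CPM and 17.7 CPM of Abcc10 against 22.6 to 25.4 CPM, 2 other genes of chromosome 17 that in WT libraries reached at most 21.4 and 15.8 CPM. It thus lay between the genotypes for genes near Ager, so its label is in doubt, and every mean of the control RAGE null mice at 4 months includes it. It also held 100.1 CPM of summed type 1 alveolar cell markers against 190 to 223 CPM. The library of RAGE null CS-exposed mice at 7 days, replicate 0, held 21.8 CPM of Slc7a11 against 214 to 283 CPM, and 2.10 CPM of Nqo1 against 12.1 to 18.4 CPM. Among the WT controls at 4 months, replicate 1 was the deepest library and held 116 CPM of Slc7a11 against 271 to 533 CPM. Where a call rests on 1 of these 3 libraries, the value without it is given beside it. The 3 were singled out in part by their own levels of Slc7a11. Values without them are therefore a description and no separate support for a difference.

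Slc7a11 was the most variable of the 9 genes. Its highest library, a CS-exposed WT mouse at 4 months, was 67.7 times its lowest, a control RAGE null mouse at 7 days, whereas the same ratio was 7.29 for Abcc1, 4.89 for Gclm, 4.62 for Gss, 2.66 for Slc3a2, 2.12 for Gpx1, 1.96 for Gpx4, 1.82 for Gclc and 1.76 for Gsr. The ratio of the highest to the lowest group mean was 12.4 for Slc7a11, 3.43 for Abcc1, 3.00 for Gclm, 2.82 for Gss and from 1.40 to 1.88 for the other 5 genes. The deposited FPKM scale divides by the length of the gene model, which ran from 847 bases for Gpx1 to 12366 for Abcc1. A gene model can be longer than the expressed transcript. Levels compared between genes, and the size of a ratio of 2 genes, are therefore approximate. On this scale the median level over all libraries was highest for Gpx1, at 672 FPKM, followed by Gsr at 149 and Slc3a2 at 101. The median FPKM of Gclm was 28.2, of Gclc 25.9, of Gpx4 19.5, of Slc7a11 17.0, of Abcc1 13.1 and of Gss 4.42. Reads that fit several places were removed before counting and pseudogene copies of Gpx4 are annotated, so the level of Gpx4 relative to the other genes is uncertain.

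**Figure D1:**
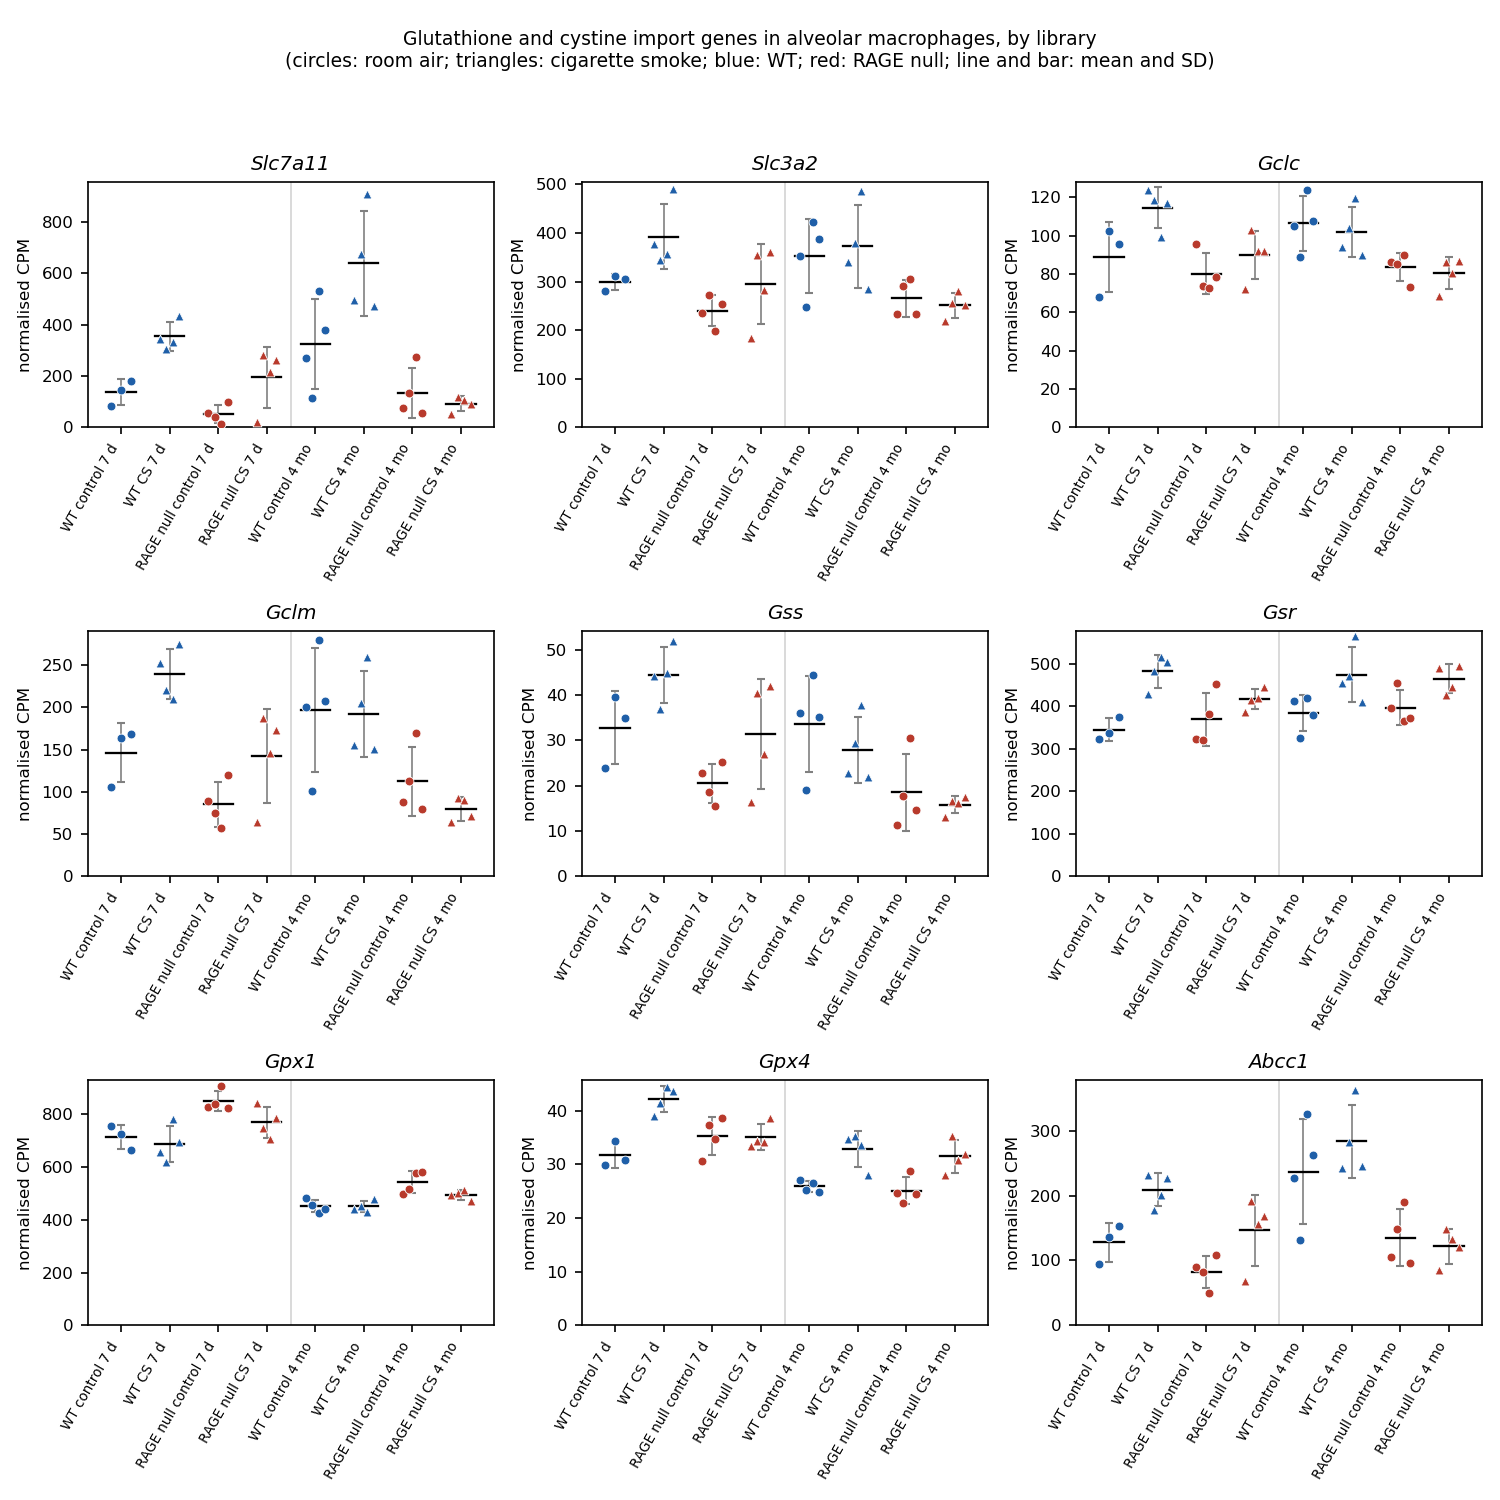
Normalised CPM of each of the 9 genes (y axis, from 0) in each of 31 libraries, by group (x axis). Circles are room air, triangles are CS, blue is WT and red is RAGE null, and the line and bar give the group mean and SD. Slc7a11 of CS-exposed WT mice at 4 months sits between 473 and 912 CPM and that of CS-exposed RAGE null mice at 4 months between 53.0 and 119 CPM, while Gpx1 is lower at 4 months than at 7 days in all 4 groups.

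Of the cystine import pair, the transport chain varied far more than the heavy chain. At 7 days Slc7a11 was at 81.8, 147 and 180.5 CPM in control WT mice and at 345, 307, 332 and 434 CPM in CS-exposed WT mice, and every CS-exposed library was above every control. In RAGE null mice it was at 53.8, 39.1, 13.5 and 99.6 CPM in controls and at 21.8, 283, 214 and 262 CPM after CS. Of the CS-exposed RAGE null libraries 3 were above all their controls, and replicate 0 was among the controls. Means were 136 ± 50.1 CPM (SD, n = 3), 354 ± 55.2 (n = 4), 51.5 ± 36.1 (n = 4) and 195 ± 119 (n = 4) in the same order of groups. The log2 fold change with CS was 1.37 (SE 0.62) in WT mice, with an adjusted p of 0.18, and 1.92 (SE 0.58) in RAGE null mice, with an adjusted p of 0.12, so neither was called. A fit of the WT groups alone called Slc7a11, Gclm and Abcc1 with 7 days of CS, with adjusted p of 0.0051, 0.019 and 0.018. Without RAGE null CS-exposed replicate 0 the change in RAGE null mice was 2.30 (SE 0.41, adjusted p 0.0081) and was called, and the change in WT mice had an adjusted p of 0.057. Control WT mice were above control RAGE null mice by 1.41 on the log2 scale (SE 0.60, adjusted p 0.14), and by the same 1.41 with an adjusted p of 0.036 without that library. After CS the genotypes differed by 0.86 (SE 0.55, adjusted p 0.44), although every CS-exposed WT library was above every CS-exposed RAGE null library, and without that library by 0.48 (SE 0.40, adjusted p 0.58).

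At 4 months Slc7a11 was called between genotypes after CS. It was at 271, 116, 533 and 378 CPM in control WT mice (324 ± 176, SD, n = 4) and at 496, 674, 912 and 473 CPM in CS-exposed WT mice (639 ± 203, n = 4). It was at 73.9, 135, 273 and 54.5 CPM in control RAGE null mice (134 ± 98.8, n = 4) and at 53.0, 119, 106 and 90.7 CPM in CS-exposed RAGE null mice (92.2 ± 28.6, n = 4). The lowest CS-exposed WT library was thus well above the highest CS-exposed RAGE null library, while the 2 control groups overlapped. After CS, WT AM held 6.91 times as much Slc7a11 as RAGE null AM, a log2 fold change of 2.79 (SE 0.50, adjusted p 0.0023), and the difference was called. Between controls it was 1.27 (SE 0.47, adjusted p 0.066), not called. The difference between controls was called at 1.89 (SE 0.45, adjusted p 0.0056) without the library labelled RAGE null control replicate 2, and at 1.56 (SE 0.44, adjusted p 0.029) without WT control replicate 1. With each library of the time point left out in turn, this difference ran from 0.93 to 1.89. The change with CS at 4 months was 0.97 in WT mice (SE 0.47, adjusted p 0.18) and -0.55 in RAGE null mice (SE 0.47, adjusted p 0.44), and the latter was 0.072 without the library labelled RAGE null control replicate 2.

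Slc3a2, the heavy chain, had group means from 240 ± 32.0 CPM (SD, n = 4) in the RAGE null controls of 7 days to 392 ± 66.4 CPM (n = 4) in CS-exposed WT mice at 7 days. After 4 months of CS it was at 339.6, 379.7, 487 and 284 CPM in WT mice and at 218, 257, 280.3 and 251 CPM in RAGE null mice, and the ranges did not overlap by a narrow margin. The log2 fold change of 0.57 (SE 0.17, adjusted p 0.041) passed the adjusted p and not the fold, so WT mice were higher by 1.48-fold. Between controls at 4 months it was 0.41 (SE 0.17, adjusted p 0.090), and with 7 days of CS it was 0.39 in WT mice (SE 0.18, adjusted p 0.20). The ratio of Slc7a11 to Slc3a2 within a library, both as FPKM, was 0.384 to 0.493 in CS-exposed WT mice at 4 months and at most 0.331 in all other libraries. It was 0.0179 to 0.103 in control RAGE null mice at 7 days and 0.0640 to 0.122 in CS-exposed RAGE null mice at 4 months. The ratio was given as a description, with no test.

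**Figure D2:**
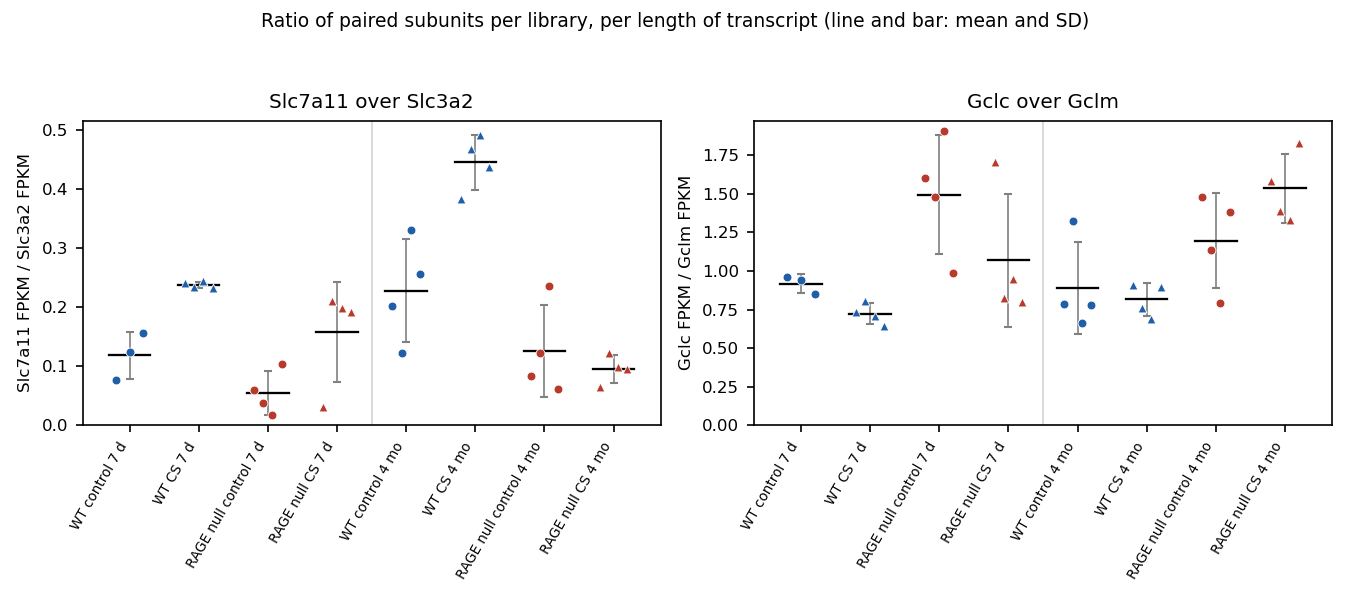
Ratio of FPKM within each library (y axes, from 0) for Slc7a11 over Slc3a2 (left) and Gclc over Gclm (right), by group (x axis), with the group mean and SD as line and bar. The import ratio of CS-exposed WT mice at 4 months (0.384 to 0.493) lies above all other libraries, and the ligase ratio of CS-exposed RAGE null mice at 4 months (1.33 to 1.83) lies above that of CS-exposed WT mice (0.691 to 0.912).

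Among the synthesis genes, Gclm was called between genotypes after 4 months of CS, Gss was called between the 4-month controls, and Gclc was called in no comparison. At 7 days Gclm was at 106, 164 and 169 CPM in control WT mice and at 253, 220.2, 210.2 and 275 CPM in CS-exposed WT mice, with no overlap. In RAGE null mice it was at 89.6, 74.9, 57.1 and 119.8 CPM in controls and at 63.7, 187, 145 and 173 CPM after CS, where replicate 0 again lay within the controls. The log2 fold change with CS was 0.71 in WT (SE 0.29, adjusted p 0.14) and 0.74 in RAGE null mice (SE 0.27, adjusted p 0.19). Without that replicate both were called, at 0.71 (adjusted p 0.048) and 0.99 (adjusted p 0.015). WT mice were above RAGE null mice by 0.78 in controls (SE 0.29, adjusted p 0.090) and by 0.75 after CS (SE 0.27, adjusted p 0.13), and without that replicate the former was called at 0.79 (adjusted p 0.021) and the latter was 0.50 (SE 0.20, adjusted p 0.21).

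At 4 months Gclm was at 201, 101, 279 and 208 CPM in control WT mice and at 155, 205, 259.5 and 151 CPM in CS-exposed WT mice, which overlapped throughout. It was at 87.5, 113, 170.2 and 79.7 CPM in control RAGE null mice and at 64.8, 93.1, 90.6 and 70.9 CPM in CS-exposed RAGE null mice, all 4 of the latter under the lowest CS-exposed WT library. After CS, WT AM held 2.41 times as much Gclm (log2 fold change 1.27, SE 0.29, adjusted p 0.010), which was called. Between controls the change of 0.80 (SE 0.28) had an adjusted p of 0.053 and was not called, but was called at 1.08 (adjusted p 0.0087) without the library labelled RAGE null control replicate 2 and at 1.03 (adjusted p 0.016) without WT control replicate 1. With each library of the time point left out in turn, this change ran from 0.59 to 1.08. With CS, the log2 fold change of Gclm in RAGE null mice was -0.50 (SE 0.28, adjusted p 0.23), and -0.23 (adjusted p 0.58) without the library labelled RAGE null control replicate 2. Gclm overlaps Gm17494 on the opposite strand, which held 0.0977 to 1.78 CPM. The strand of the reads was not stated, so reads of the 2 genes cannot be told apart where they overlap.

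Gclc, the catalytic subunit, kept to a narrow range, with group means from 80.2 ± 10.7 CPM (SD, n = 4) in the RAGE null controls of 7 days to 115 ± 10.5 CPM (n = 4) in CS-exposed WT mice at 7 days. At 4 months it was at 105, 89.0, 124 and 108 CPM in control WT mice and at 86.3, 85.3, 89.8 and 73.4 CPM in control RAGE null mice, which overlapped only between the lowest WT and the highest RAGE null library. The difference of 0.34 on the log2 scale (SE 0.11, adjusted p 0.034) passed the adjusted p at a fold of 1.27. After CS it was 94.3, 104, 119.6 and 90.1 CPM in WT and 68.5, 86.3, 80.5 and 86.6 CPM in RAGE null mice, with no overlap, and the same difference of 0.34 (SE 0.11) had an adjusted p of 0.054. With 7 days of CS it changed by 0.36 in WT mice (SE 0.14, adjusted p 0.13) and by 0.16 in RAGE null mice (SE 0.13, adjusted p 0.58). The ratio of Gclc to Gclm as FPKM was 0.816 ± 0.107 (SD, n = 4) in CS-exposed WT and 1.54 ± 0.225 (n = 4) in CS-exposed RAGE null mice at 4 months. Over all libraries it ran from 0.640 to 1.91.

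Gss, which completes glutathione, was the least abundant of the 9 per length of the gene model. At 4 months it was at 36.0, 19.0, 44.4 and 35.1 CPM in control WT mice and at 11.3, 17.6, 30.6 and 14.6 CPM in control RAGE null mice. WT mice were higher by 1.78-fold (log2 fold change 0.83, SE 0.28, adjusted p 0.046), which was called although the ranges overlapped. The overlap came from WT control replicate 1 and from the library labelled RAGE null control replicate 2, and without the latter the change was 1.20 (adjusted p 0.0032). The call was lost in a fit of the control groups alone (adjusted p 0.11) and when any 1 of the other 6 control libraries of this time point was left out (adjusted p 0.079 to 0.14). After CS it was at 22.7, 29.3, 37.7 and 21.8 CPM in WT and at 13.1, 16.5, 16.1 and 17.4 CPM in RAGE null mice, with no overlap. That difference of 0.82 (SE 0.29, adjusted p 0.080) was not called, and was called at 0.83 (adjusted p 0.028) without the same library and at 0.82 (adjusted p 0.045) without WT control replicate 1. At 7 days Gss was at 22.9, 18.7, 15.5 and 25.1 CPM in control RAGE null mice and at 16.4, 40.4, 26.9 and 41.9 CPM after CS (log2 fold change 0.60, SE 0.24, adjusted p 0.25), and without CS-exposed replicate 0 the change of 0.83 (adjusted p 0.028) was called. Gss overlaps Acss2, an acetyl-CoA synthetase on the opposite strand with 5.14 to 21.9 CPM, whose own change was 0.74 between controls at 4 months (adjusted p 0.069) and 0.53 after CS (adjusted p 0.27). The reads of Gss and Acss2 cannot be told apart where they overlap.

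Abcc1, the exporter, had its highest group mean in CS-exposed WT mice at 4 months and its lowest in control RAGE null mice at 7 days, as Slc7a11 did. At 7 days it was at 94.7, 136 and 153 CPM in control WT mice and at 232, 177, 201 and 227 CPM in CS-exposed WT mice, with no overlap (log2 fold change 0.71, SE 0.28, adjusted p 0.14). In RAGE null mice it was at 90.2, 82.3, 49.7 and 108 CPM in controls and at 67.5, 191, 157 and 169 CPM after CS (0.83, SE 0.26, adjusted p 0.14). Without CS-exposed RAGE null replicate 0 both changes were called, at 0.70 (adjusted p 0.047) and 1.07 (adjusted p 0.010), and so was the difference of 0.64 between control genotypes (adjusted p 0.049, against 0.15 with all libraries). At 4 months Abcc1 was at 227, 132, 326 and 263 CPM in control WT mice and at 106, 149, 191 and 95.6 CPM in control RAGE null mice, which overlapped, and the change of 0.80 (SE 0.26, adjusted p 0.038) was called. That call was also lost in a fit of the control groups alone (adjusted p 0.085) and when any 1 of the same 6 libraries was left out (adjusted p 0.057 to 0.13). After CS it was at 243, 283, 363 and 246 CPM in WT and at 85.7, 148, 133 and 120.3 CPM in RAGE null mice, so that every WT library was above every RAGE null library. That difference was 2.32-fold (log2 fold change 1.22, SE 0.26, adjusted p 0.0078) and was called.

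For the genes that spend and recycle glutathione no genotype difference was called. Gpx4 rose with CS without reaching a fold of 1.5 and did so at 4 months in both genotypes. At 7 days it was at 29.8, 34.4 and 30.8 CPM in control WT mice and at 39.0, 41.5, 44.5 and 43.7 CPM in CS-exposed WT mice (log2 fold change 0.41, SE 0.09, adjusted p 0.015), with no overlap. In RAGE null mice at 7 days it ran from 30.6 to 38.6 CPM in controls and from 33.3 to 38.5 CPM after CS, with overlap throughout. At 4 months it was at 27.1, 25.3, 26.4 and 24.8 CPM in control WT mice and at 34.7, 35.2, 33.7 and 27.9 CPM in CS-exposed WT mice (0.34, SE 0.09, adjusted p 0.017). It was at 24.6, 22.7, 28.8 and 24.4 CPM in control RAGE null mice and at 28.0, 35.3, 30.7 and 31.8 CPM after CS (0.32, SE 0.09, adjusted p 0.021), where the highest control, the library that stood apart, lay within the CS-exposed range. Genotypes differed by 0.26 after 7 days of CS (SE 0.08, adjusted p 0.072) and by 0.06 after 4 months (SE 0.09, adjusted p 0.70).

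Gsr, the reductase, was at 322, 336 and 375 CPM in control WT mice at 7 days and at 428, 483, 515 and 503 CPM in CS-exposed WT mice. The groups did not overlap, and the rise of 1.40-fold (log2 fold change 0.48, SE 0.11, adjusted p 0.017) passed the adjusted p and not the fold. In RAGE null mice at 7 days the change was 0.18 (SE 0.10, adjusted p 0.39), and at 4 months it was 0.30 in WT mice (SE 0.10, adjusted p 0.064) and 0.22 in RAGE null mice (SE 0.10, adjusted p 0.14). Gpx1, the most abundant of the 9 per length of the gene model, was lower in WT than in RAGE null controls at 4 months. It was at 483, 455, 428 and 443 CPM in control WT and at 499, 516, 577 and 581 CPM in control RAGE null mice, with no overlap (log2 fold change -0.27, SE 0.06, adjusted p 0.0086), a difference short of the fold of 1.5. At 7 days control WT mice held 757, 725 and 666 CPM and control RAGE null mice 827, 840.5, 907 and 826 CPM, again with no overlap (-0.24, SE 0.08, adjusted p 0.068). The 7-day groups of Gpx1 were all above the 4-month groups, and age, time and, if they differed, sequencing runs cannot be told apart between the time points.

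Ordered by mean, most neighbouring groups overlapped in their libraries. For Slc7a11 the CS-exposed WT mice at 4 months did not overlap those at 7 days, the next in order, and each lower neighbour overlapped the next. For Slc3a2, Gclc, Gclm, Gss, Gsr and Abcc1 every neighbouring pair of groups overlapped. For Gpx1 the CS-exposed WT mice at 7 days were above control RAGE null mice at 4 months without overlap. For Gpx4 the CS-exposed WT mice at 7 days were above the next group without overlap, and CS-exposed RAGE null mice at 4 months were above control WT mice at 4 months.

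Counted over the 9 genes, no calls were made at 7 days with all libraries, and 1 library decided this for some comparisons. The 9 genes are not independent, since 6 of them rose and fell together from library to library, so 1 library can move several genes of a count. With 7 days of CS, 0 of 9 were called in WT mice, against 2.26% of all 13220 genes tested, and 0 of 9 in RAGE null mice, against 0.439%. In WT mice 2 of 9 passed the adjusted p at any fold (Gsr and Gpx4), against 6.41% of all genes, and 6 of 9 did not overlap between groups (Slc7a11, Slc3a2, Gclm, Gsr, Gpx4 and Abcc1), against 20.9% of all genes. At an unadjusted p under 0.05 there were 7 of 9 in WT and 4 of 9 in RAGE null mice, all with higher levels after CS, against 24.9% and 15.8% of all genes, and DESeq2 called 0 in each. Between genotypes 0 of 9 were called in controls, against 4.78% of all genes, and 0 of 9 after CS, against 2.2%. At an unadjusted p under 0.05 there were 5 of 9 in controls and 7 of 9 after CS, of which all but Gpx1 were higher in WT mice, against 27.4% and 18.8% of all genes, and DESeq2 again called 0 in each. Without RAGE null CS-exposed replicate 0, 4 of 9 were called with CS in RAGE null mice and 4 of 9 between control genotypes (Slc7a11, Gclm, Gss and Abcc1 in each), and 2 of 9 with CS in WT mice (Gclm and Abcc1), beside 194, 673 and 323 genes called in all. That library was singled out in part by its low Slc7a11, so these counts are no separate support for a difference. The median log2 fold change of the 9 genes was 0.43 with CS in WT and 0.30 with CS in RAGE null mice, 0.32 between control genotypes and 0.41 after CS, whereas the median over all genes was within 0.01 of 0 in each.

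At 4 months, calls came between genotypes and not with CS. With CS, 0 of 9 were called in WT mice, against 5.67% of all 13045 genes tested, and 0 of 9 in RAGE null mice, against 7.27%. Gpx4 passed the adjusted p at any fold in each genotype, against 14.3% and 20% of all genes. At an unadjusted p under 0.05 there were 2 of 9 in WT and 3 of 9 in RAGE null mice, against 28.4% and 33.8% of all genes, and DESeq2 called 0 in each. Between controls 2 of 9 were called, Gss and Abcc1, both higher in WT mice, against 6.97% of all genes. There 4 of 9 passed the adjusted p at any fold, with Gclc higher and Gpx1 lower in WT mice, against 21.3%. A fit of the control groups alone called 0 of 9, and DESeq2 called 3, with 939 genes in all. This count moved with single libraries and was 0 without any of WT control replicates 0, 2 and 3 or RAGE null control replicates 0, 1 and 3, 1 without CS-exposed WT replicate 1 or CS-exposed RAGE null replicates 1, 2 or 3, and 4 without WT control replicate 1 or without the library labelled RAGE null control replicate 2. After CS, 3 of 9 were called, Slc7a11, Gclm and Abcc1, all higher in WT mice, against 4.94% of all genes, and DESeq2 called 4, with 719 genes in all. With Slc3a2, 4 of 9 passed the adjusted p at any fold, against 10.8%, and 6 of 9 did not overlap (Slc7a11, Slc3a2, Gclc, Gclm, Gss and Abcc1), against 19.4%. The median log2 fold change of the 9 genes was 0.41 between controls and 0.57 after CS, against medians over all genes within 0.01 of 0. The comparisons share control or CS-exposed libraries and are not independent of each other, and neither are the 9 genes.

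**Figure D3:**
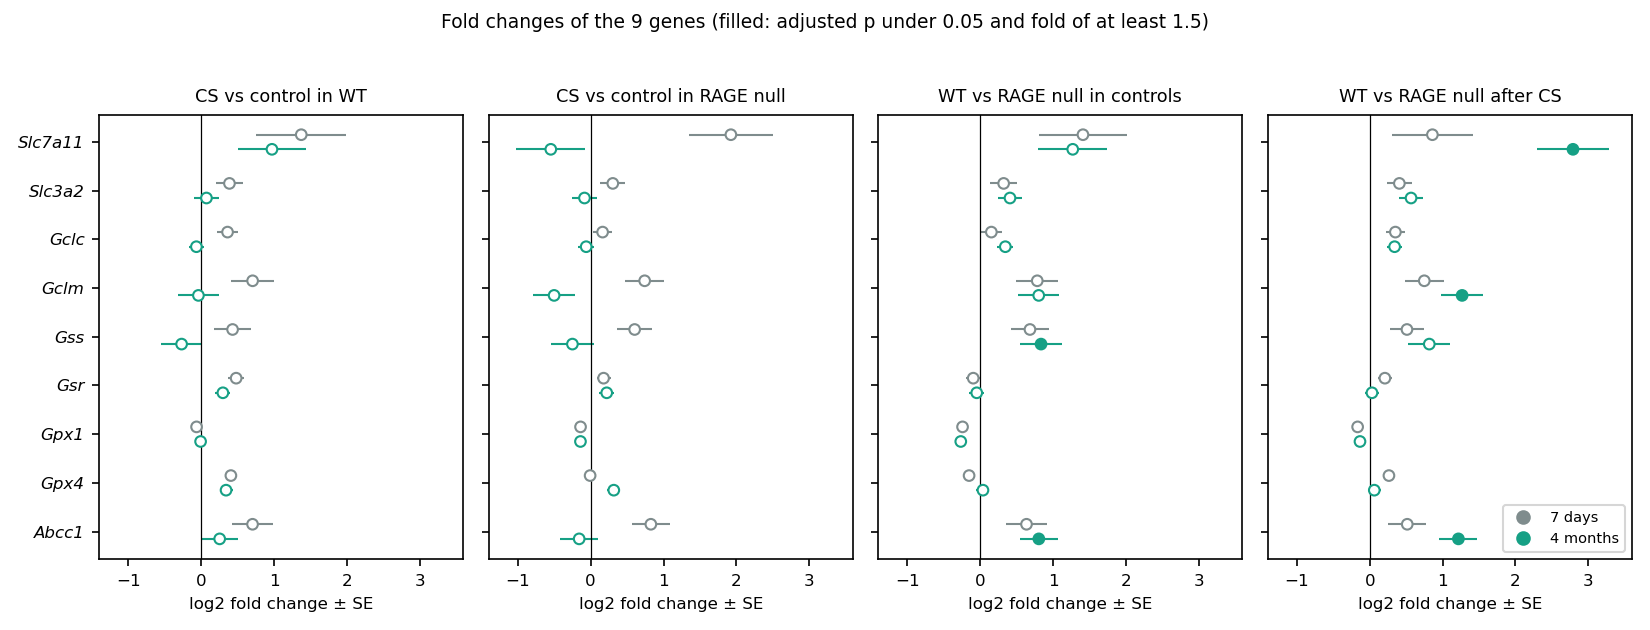
Log2 fold change with SE (x axes) of the 9 genes (y axis) with CS in WT mice, with CS in RAGE null mice, and of WT over RAGE null mice in controls and after CS, at 7 days (grey) and 4 months (green). Filled points were called. Of the filled points, Gss (0.83) and Abcc1 (0.80) are in the 4-month controls and Slc7a11 (2.79), Gclm (1.27) and Abcc1 (1.22) are after 4 months of CS.

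Whether CS acted differently in the 2 genotypes was tested by the interaction, that is, how much larger the log2 change with CS was in WT mice. At 4 months the interaction of Slc7a11 was 1.52 on the log2 scale (SE 0.66, unadjusted p 0.036, adjusted p 0.37), and those of Gclm and Abcc1 were 0.46 (SE 0.40, adjusted p 0.67) and 0.41 (SE 0.36, adjusted p 0.68). Without the library labelled RAGE null control replicate 2 the interaction of Slc7a11 was 0.91 (SE 0.57, adjusted p 0.44). None of the 9 was called, against 0.0383% of all genes, and DESeq2 called 0 of 9. At 7 days the interaction was -0.55 for Slc7a11 (SE 0.82, adjusted p 0.79; without CS-exposed RAGE null replicate 0, -0.93, SE 0.57, adjusted p 0.40), 0.42 for Gpx4 (SE 0.12, unadjusted p 0.0025, adjusted p 0.16) and 0.30 for Gsr (SE 0.14, adjusted p 0.31), and 0 of 9 were called, against 0% of all genes. At an unadjusted p under 0.05 there were 2 of 9 at 7 days, against 15.9% of all genes, and 1 of 9 at 4 months, against 12.0%. The larger genotype difference of Slc7a11 after CS than in controls was therefore not shown beyond the spread of the libraries by this test.

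The change of the CS response from 7 days to 4 months was tested in the fit of all libraries. In RAGE null mice the responses of Slc7a11, Gclm, Abcc1 and Gss were lower at 4 months than at 7 days. The log2 fold change was -2.46 for Slc7a11 (SE 0.80, adjusted p 0.093) and -1.23 for Gclm (SE 0.42, adjusted p 0.11). It was -0.97 for Abcc1 (SE 0.39, adjusted p 0.19) and -0.84 for Gss (SE 0.40, adjusted p 0.27). The response of Gpx4 in RAGE null mice was higher at 4 months by 0.33 (SE 0.12, adjusted p 0.13). None of the 9 was called, against 1.86% of all 13408 genes tested, and 0 of 9 by DESeq2. At an unadjusted p under 0.05 there were 5 of 9, against 17.9% of all genes, and all but Gpx4 were lower at 4 months. Without CS-exposed RAGE null replicate 0 at 7 days, Slc7a11 (-2.83, SE 0.68, adjusted p 0.026) and Gclm (-1.48, SE 0.38, adjusted p 0.034) were called. In WT mice the response differed by -0.40 for Slc7a11 (SE 0.81, adjusted p 0.84) and by -0.43 for Gclc (SE 0.18, adjusted p 0.21), and 0 of 9 were called, against 0.783% of all genes, with 1 of 9 at an unadjusted p under 0.05, against 18.1%.

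Within groups 6 of the genes went up and down together from mouse to mouse. After the mean of each group was subtracted from the log2 CPM, Pearson's r with Slc7a11 over 31 libraries was 0.97 for Abcc1 (Spearman's rho 0.98), 0.95 for Gclm (0.96), 0.88 for Gss (0.87), 0.85 for Slc3a2 (0.83) and 0.71 for Gclc (0.68). It was 0.37 for Gsr, 0.39 for Gpx4 and -0.39 for Gpx1. Without the 2 libraries farthest from the median of Slc7a11, CS-exposed RAGE null replicate 0 and control RAGE null replicate 2 of 7 days, r was 0.96 for Abcc1, 0.95 for Gclm, 0.88 for Gss, 0.78 for Slc3a2, 0.68 for Gclc and -0.20 for Gpx1. Within 7 days r was 0.98 for Abcc1 and 0.97 for Gclm, and within 4 months it was 0.98 and 0.96. The library lowest in Slc7a11 was also the lowest of its group for Slc3a2, Gclc, Gclm, Gss and Abcc1 in 7 of 8 groups each, for Gsr and Gpx4 in 4 and for Gpx1 in 1. These correlations are descriptions without p-values, as the points share their library, its depth and its cell makeup.

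**Figure D4:**
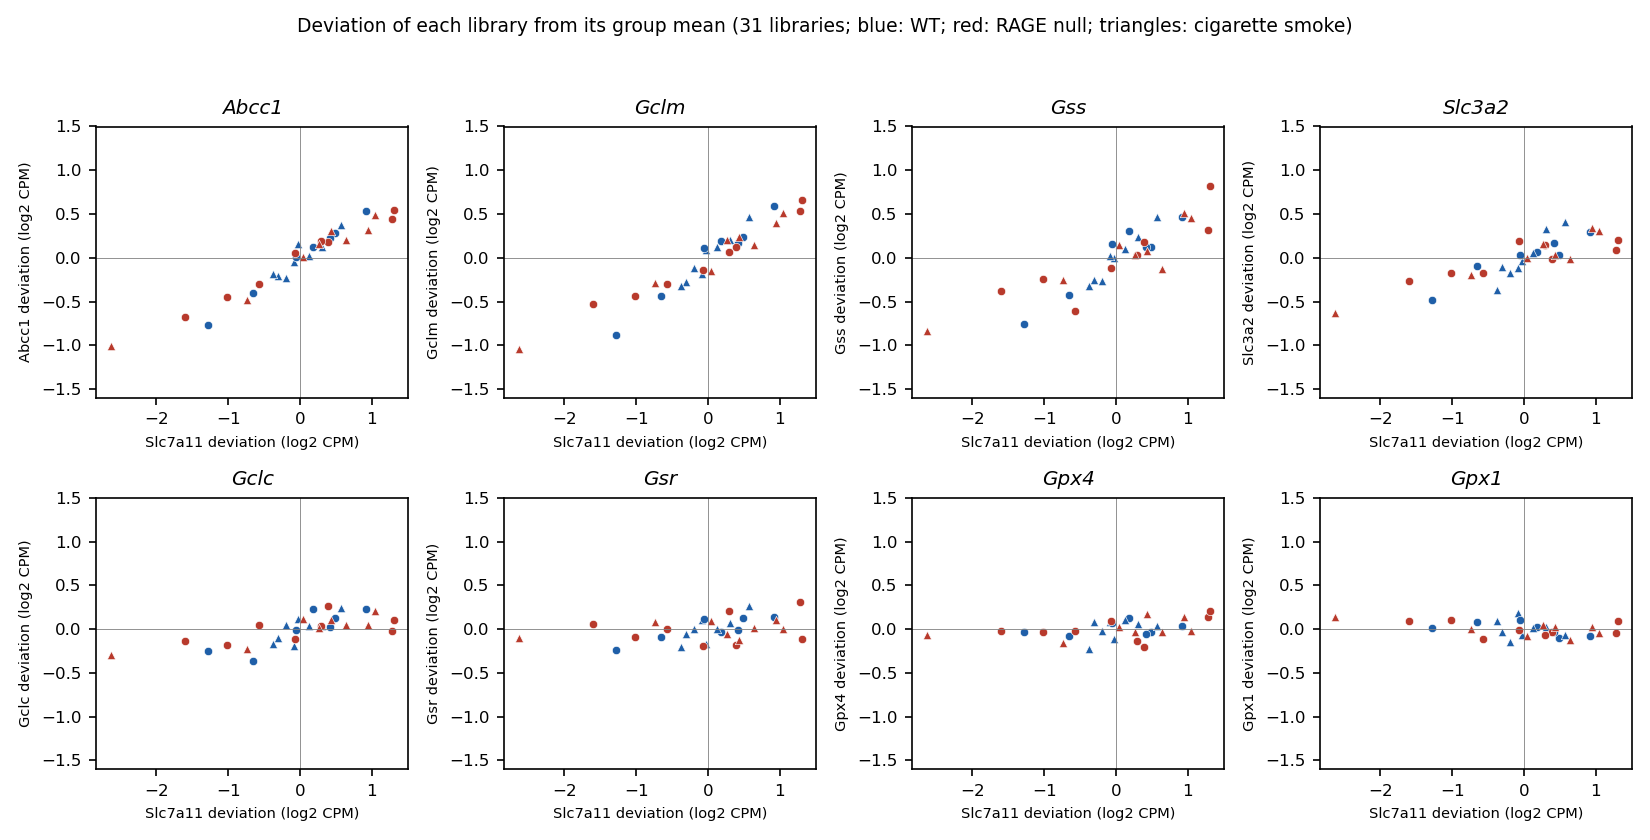
Deviation from the group mean in log2 CPM of 8 genes (y axes) against that of Slc7a11 (x axes) in 31 libraries, with WT in blue, RAGE null in red and CS-exposed mice as triangles. The points of Abcc1 (r 0.97) and Gclm (r 0.95) lie close to a line, while those of Gsr (0.37), Gpx4 (0.39) and Gpx1 (-0.39) scatter.

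The genes most like Slc7a11, Gclc and Gclm were sought among the 9407 genes at or above a mean log2 CPM of 3, by Pearson's r over 31 libraries after the mean of the time point was subtracted. For Slc7a11 they were Abcc1 (0.98), Txnrd1 (0.97), a thioredoxin reductase, and Srxn1 (0.97), a sulfiredoxin that repairs peroxiredoxins. For Gclm they were Abcb6, a porphyrin transporter, Hmox1, the inducible heme oxygenase, and Abcc1, each at 0.97. For Gclc they were Txnrd1, Srxn1 and Gclm, each at 0.89. This measure includes the differences between groups of a time point.

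Other genes of glutathione metabolism were read from 7 lists of the pathway. Between genotypes after 4 months of CS, WT mice were higher in Abcc3, a conjugate exporter (log2 fold change 1.81, adjusted p 0.0017). They were also higher in Me1, malic enzyme, a source of NADPH (1.99, adjusted p 0.023). The same held for Esd, which frees glutathione from its formaldehyde adduct (1.04, adjusted p 0.014), and Ggt5, a gamma-glutamyltransferase (0.82, adjusted p 0.049). It held too for Scly, a selenocysteine lyase (0.65, adjusted p 0.0026), and Sqstm1, an adaptor that binds the Nrf2 inhibitor Keap1 (0.73, adjusted p 0.038). A short gene model annotated as Mafg, a partner of Nrf2, was also higher (0.62, adjusted p 0.024). The deposited data hold another entry of that symbol, which was not read, so the value does not stand for the whole gene. WT mice were lower in Cdo1, which oxidizes cysteine (-1.85, adjusted p 0.013), and in Nnt (-0.98, adjusted p 0.00054). Nnt is a mitochondrial NADPH source that is deleted in part in some C57BL/6 substrains. By list, called higher and lower in WT mice were 0 and 1 of 11 tested genes of cysteine supply, 1 and 0 of 10 of glutathione breakdown, 1 and 1 of 10 other glutathione-using enzymes, 1 and 1 of 13 of NADPH supply, 1 and 1 of 10 transporters, 2 and 0 of 14 regulators and 1 and 0 of 9 of selenoprotein synthesis. Of all genes tested, 4.94% were called in this comparison. The medians of these lists lay between -0.04 and 0.18 on the log2 scale, against 0.57 for the 9 genes described here. Glo1, which uses glutathione to clear methylglyoxal, and the transporter Abcc10 were lower in WT mice in all 4 genotype comparisons, with log2 fold changes from -1.26 to -0.95 for Glo1 and from -1.12 to -0.59 for Abcc10. Both lie on chromosome 17, at 30592866 to 30612659 and at 46303221 to 46328352, on either side of Ager at 34597862 to 34600934.

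Between control genotypes at 4 months Cdo1 (-1.94, adjusted p 0.019) and Nnt (-0.64, adjusted p 0.0080) were also lower in WT mice, and Sqstm1 was higher (0.64, adjusted p 0.043). At 7 days Chac1, which degrades glutathione (-1.11, adjusted p 0.016), was lower and Lrp8, a receptor for selenoprotein P (0.74, adjusted p 0.024), was higher in WT than in RAGE null controls, and the amino acid exchanger Slc7a5 was lower in WT mice after CS (-0.67, adjusted p 0.017). With CS at 4 months the transporter of small neutral amino acids Slc1a4 fell in both genotypes. Its log2 fold change was -1.91 in WT (adjusted p 0.0032) and -2.66 in RAGE null mice (adjusted p 0.0012). Anpep, a peptidase that cleaves cysteinylglycine, rose by 1.19 and 1.30 (adjusted p 0.028 and 0.016), and the efflux pump Abcg2 rose by 0.98 and 0.83 (adjusted p 0.0014 and 0.0043). In WT mice Gpx3, the secreted peroxidase, rose (1.16, adjusted p 0.017), and in RAGE null mice Cdo1 rose (1.29, adjusted p 0.041) and Slc38a2 fell (-0.72, adjusted p 0.00059). The response of Abcg2 was larger at 4 months than at 7 days by 0.99 in WT mice (adjusted p 0.030) and by 0.97 in RAGE null mice (adjusted p 0.016). With 7 days of CS the call among these lists was Sqstm1, which rose in WT mice (0.97, adjusted p 0.017).

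Markers of other cells moved with some of these comparisons. Of all genes, 4.78% were called between genotypes in controls and 2.2% after CS at 7 days, and 6.97% and 4.94% at 4 months. With CS, 2.26% were called in WT and 0.439% in RAGE null mice at 7 days, and 5.67% and 7.27% at 4 months. In 7-day controls 10 of 14 type 1 alveolar cell markers and 10 of 15 type 2 markers were called lower in WT than in RAGE null mice, with summed levels of 121 to 157 against 223 to 268 CPM and of 282 to 298 against 395 to 617 CPM. Summed monocyte and interstitial macrophage markers ran there from 893 to 1052 CPM in WT and from 1419 to 1589 CPM in RAGE null mice. Between the 4-month controls 6 of 11 type 1 and 8 of 13 type 2 markers were called lower in WT mice. There 8 of 11 dendritic cell markers were called higher, with summed levels of 100.1 to 176 against 38.4 to 70.3 CPM. In the same controls summed monocyte and interstitial macrophage markers ran from 1487 to 2151 CPM in WT and from 2340 to 3675 CPM in RAGE null mice. Summed neutrophil markers ran from 173 to 233 against 217 to 392 CPM. After CS 3 of 11 type 1 markers were called lower and 1 of 13 type 2 markers higher in WT mice. After 4 months of CS the summed type 1 markers ran from 101 to 135 CPM in WT and from 103 to 137 CPM in RAGE null mice, and the dendritic cell markers, 3 of 11 called higher in WT mice, from 39.3 to 57.6 against 13.6 to 25.6 CPM. Clock genes, 5 of 14 called higher and 1 lower in WT mice in the same comparison, ran from 1569 to 1700 against 1430 to 1549 CPM. With CS at 4 months 7 of 10 monocyte markers were called lower in each genotype, and so were 10 of 11 dendritic cell markers in WT and 8 of 11 in RAGE null mice. With 7 days of CS 7 of 14 airway markers were called higher in WT mice. Between genotypes after 7 days of CS, 6 of 14 type 1 and 4 of 15 type 2 markers were called lower and 4 of 10 dendritic cell and 3 of 14 airway markers higher (1 lower) in WT mice. Clock genes moved with CS in every group, with 7 of 14 called higher and 1 lower at 7 days in each genotype (median log2 fold change 0.84 in WT and 1.49 in RAGE null mice), 9 higher and 1 lower in WT and 7 higher and 1 lower in RAGE null mice at 4 months. The part of these cells and of the clock genes in the levels of the 9 genes was not tested, and in such bulk RNA fewer cells of a type and less RNA per cell cannot be told apart.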

How the data were processed

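Alveolar macrophages of 31 mice in 8 groups were sequenced with oligo dT selected libraries. The authors aligned reads with Novoalign to mm10, removed reads with multiple locations, and deposited per-gene read counts from USeq as whole numbers. The authors also deposited FPKM values, used here only to compare genes per length of the gene model. The deposited log2 ratios and adjusted p-value columns of the authors' own comparisons were not used. The table holds 13521 genes, the largest count of each being at least 20, and strand was not stated.

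Counts were tested in R 4.3.3 with edgeR 4.0.16 (filterByExpr at its defaults, which are 10 counts per library and 15 in total, TMM scaling, quasi-likelihood F test, 2-sided), with 1 coefficient per group. There were 13220 genes at 7 days (15 libraries), 13045 at 4 months (16 libraries) and 13408 over all 31. WT was set over RAGE null. The threshold was an adjusted p under 0.05 with a fold of 1.5. The lowest count of a described gene was 147 in libraries of 11.7 to 34.5 M counts. The code was tested on simulated data.

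All 9 genes were described in every comparison. Of each pathway list the called genes were named, at most 4 by smallest p, and for Slc7a11, Gclc and Gclm the 3 genes with the highest r. The genes and lists were chosen with earlier results of these data known. As alternatives, DESeq2 1.42.0 replaced the test or only the size factors, the filter was dropped or set to 20 counts in each library, the fold threshold was dropped, the replicate number was added as a block, the fit was narrowed to the groups compared or widened to all libraries, and each library was left out. Levels, correlations and figures were made in Python 3.11.15 (numpy 2.4.6, pandas 2.3.3, matplotlib 3.10.9, scipy 1.17.1). Promoter windows came from RefSeq.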

Additional observations from a re-analysis of the deposited data

Results flagged for a closer look

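Slc7a11 in CS-exposed RAGE null mice at 7 days had a lowest library, replicate 0 at 21.8 CPM, far from the others of its group at 214 to 283 CPM. On the log2 CPM scale its gap to the nearest library was 0.891 of the whole range of the group, above the 95% critical value of Dixon's test for 4 libraries. It was the library singled out on that scale among 63 sets of a gene and a group, and 0 were on the CPM scale. About 1 set in 20 would be singled out by chance.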

How the results depend on the processing

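The counts of genes called among the 9 moved in these cases. With no fold threshold they were 2 with CS in WT mice at 7 days, 1 with CS at 4 months in each genotype, and 4 between controls at 4 months. With the groups of the comparison alone they were 3 with CS in WT mice at 7 days and 0 between controls at 4 months. The calls over all genes in these 2 fits were within 1.5 times of 299 for the former and 604 for the latter. With the replicate number as a block, 4 were called between controls at 4 months (Slc7a11 and Gclm with Gss and Abcc1), and the calls over all genes stayed within 1.5 times of 909. The numbers do not pair the mice: deviations of same-numbered libraries had a mean correlation from -0.044 to 0.089 over the 8 comparisons. The block moved no other count of the 9 beyond 1.5 times. With each library left out in turn, the counts ran from 0 to 2 with CS in WT and from 0 to 4 with CS in RAGE null mice at 7 days, from 0 to 4 between controls at 7 days and at 4 months, and from 0 to 2 for the change of response in RAGE null mice. The change with CS in RAGE null mice at 4 months ran from -0.81 to 0.072 for Slc7a11, from -0.42 to 0.12 for Gss and from -0.29 to 0.056 for Abcc1, with the sign turned only without the library labelled RAGE null control replicate 2. The count after 4 months of CS stayed between 3 and 4 under every alternative run. The cause of these shifts was not tested.

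The counts over all genes moved as follows, in the order CS in WT, CS in RAGE null, genotypes in controls and genotypes after CS where 4 are given. With no fold threshold the calls were 847, 119, 1307 and 588 at 7 days (299, 58, 632 and 291 with it), 1863, 2606, 2777 and 1414 at 4 months (739, 949, 909 and 644), 8 for the 4-month interaction (5), and 164 for the change of response in WT mice (105). DESeq2 called 114 with CS in RAGE null mice at 7 days, 114 and 65 for the 7-day and 4-month interactions (0 and 5), and 258 for the change of response in WT mice. Leaving out 1 library gave 46 to 480, 15 to 194, 241 to 830 and 178 to 305 at 7 days, and 557 to 831, 746 to 1294, 647 to 1481 and 458 to 763 at 4 months. For the interactions it gave 0 to 119 and 3 to 74, and for the change of response 0 to 300 in WT and 92 to 469 in RAGE null mice. With at least 20 counts in each library the calls were 303 and 155 between genotypes at 7 days (controls, then CS), 406, 582, 554 and 400 at 4 months, and 37 for the change of response in WT mice. The replicate block gave 189 with CS in WT mice at 7 days and 69 for the change of response in WT mice. The groups of the comparison alone gave 27 with CS in RAGE null mice at 7 days, 596 with CS in RAGE null mice at 4 months and 604 between the 4-month controls. All libraries in 1 fit gave 100 and 31 for the interactions.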
